A study of Mus musculus with 8 samples.

Results

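Granzymes are serine proteases that cytotoxic lymphocytes store in secretory granules together with perforin, a protein that assembles into pores in the membrane of the attacked cell and lets the proteases in. The genes described here are 9 granzyme genes (*Gzma*, *Gzmb*, *Gzmc*, *Gzmd*, *Gzme*, *Gzmf*, *Gzmg*, *Gzmk* and *Gzmm*) and the perforin gene *Prf1*. They were taken by symbol, with no threshold on their values, and all 10 were found among the 24303 genes of the table. RNA was measured by polyA-selected RNA-Seq in primary CD8 T cells from the spleens of P14 mice, whose transgenic T cell receptor recognizes the GP33 peptide of lymphocytic choriomeningitis virus. There were 4 conditions with 2 libraries each, all started with 2 days on plates coated with anti-CD3 and anti-CD28. Effector cells were collected on day 7, and their peptide schedule is not given in the labels. Acute-2d cells received no GP33 after the plates and were collected on day 19. Acute-7d cells were repeatedly given GP33 until day 7, were then kept without peptide and were also collected on day 19. Cells of the condition labelled Dysfunctional, written T_Dysf here, were repeatedly given GP33 until day 19 with TGF-β1 present from day 7. T_Dysf therefore differed from Acute-7d in both late peptide and TGF-β1, and their parts cannot be told apart. These are transgenic cells kept in culture and purified by flow cytometry before RNA was taken. The study calls the libraries of a condition biological replicates, and whether they came from separate animals is not given in the sources used here. The p-values measure the spread between these libraries.

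A cytotoxic T cell kills in steps. Perforin opens the way, granzyme B cuts caspases and other proteins next to aspartate and starts apoptosis, and granzymes A and K cut next to lysine or arginine. *Gzma* and *Gzmk* lie next to each other on mouse chromosome 13. *Gzmb* stands at one end of a cluster on chromosome 14 that also holds *Gzmc*, *Gzmd*, *Gzme*, *Gzmf* and *Gzmg*, which are rodent genes that arose by duplication and are best known from strongly stimulated killer cells and NK cells. *Gzmm* and *Prf1* lie far apart on chromosome 10.

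In the GRCm38 build (mm10) *Gzma* spans chr13:113093824-113100981 and *Gzmk* chr13:113171630-113180965. In the chromosome 14 cluster, in order of position, *Gzme* spans chr14:56117619-56120625, *Gzmd* chr14:56129556-56132603, *Gzmg* chr14:56156581-56159579, *Gzmf* chr14:56205263-56211407, *Gzmc* chr14:56231397-56241647 and *Gzmb* chr14:56258836-56262334. *Prf1* spans chr10:61297751-61304684 and *Gzmm* chr10:79689020-79695261. The genes on chromosomes 13 and 14 are read from the minus strand and the pair on chromosome 10 from the plus strand.

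The promoters show how close the cluster genes are to each other. Over the 250 bases before the transcript start, as given by RefSeq for GRCm38.p6, the 10 pairs among *Gzmc* to *Gzmg* were between 84.4% and 95.6% identical, and the other 35 pairs of members between 55.5% and 69.5%. The start used is not always the outer end of the gene span given above. For *Gzmc* the bases compared were chr14:56234658-56234907, inside a span that runs to 56241647. Those of *Gzmd* and *Prf1* also reach into their spans. The 5 genes *Gzmc* to *Gzmg* share an unbroken run of 20 bases that is found in 5 of 27025 promoters, theirs. In front of it lies an 8-base box, printed in capitals, which is a full cAMP response element (CRE, TGACGTCA) in *Gzmc*, *Gzmf* and *Gzmg*. Counted from 1 at the 5′ end of that box, *Gzmd* carries the change C4T and *Gzme* the change G5A. The stretches are shown because these 5 genes, so alike here, did not share 1 expression pattern. They lie at chr14:56234663-56234734, chr14:56132603-56132674, chr14:56120636-56120707, chr14:56211438-56211509 and chr14:56159605-56159676, all on the minus strand.
Gzmc: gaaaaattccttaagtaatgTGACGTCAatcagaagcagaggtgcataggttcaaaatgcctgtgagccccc
Gzmd: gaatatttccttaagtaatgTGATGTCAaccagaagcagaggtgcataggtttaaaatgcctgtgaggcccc
Gzme: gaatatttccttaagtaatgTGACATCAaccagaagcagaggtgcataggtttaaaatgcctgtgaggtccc
Gzmf: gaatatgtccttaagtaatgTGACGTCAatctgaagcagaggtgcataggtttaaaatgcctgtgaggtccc
Gzmg: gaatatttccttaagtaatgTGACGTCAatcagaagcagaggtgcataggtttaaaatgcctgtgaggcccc

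The promoters of *Gzma* and *Gzmb*, the members with the most reads, looked unlike these and unlike each other. They are printed from 250 bases before the start up to the start, at chr13:113100982-113101231 and chr14:56262335-56262584 on the minus strand, with matches to 4 motifs in capitals. The motifs, searched on both strands, were the CRE, the AP-1 site TGANTCA, the core of the Runx site TGTGGT and the T-box site GTGTGA, and no pair of them overlapped in these sequences.
Gzma: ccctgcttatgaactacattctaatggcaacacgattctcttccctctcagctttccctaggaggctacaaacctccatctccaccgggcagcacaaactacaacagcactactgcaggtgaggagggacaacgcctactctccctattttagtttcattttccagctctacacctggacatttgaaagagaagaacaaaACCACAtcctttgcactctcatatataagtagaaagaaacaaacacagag
Gzmb: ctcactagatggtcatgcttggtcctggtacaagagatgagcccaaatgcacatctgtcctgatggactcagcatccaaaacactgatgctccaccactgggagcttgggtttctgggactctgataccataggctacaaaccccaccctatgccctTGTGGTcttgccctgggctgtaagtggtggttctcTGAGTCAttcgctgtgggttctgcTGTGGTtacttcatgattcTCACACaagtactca

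*Gzma* held 1 Runx core, which begins 50 bases before the start. *Gzmb* held 2 Runx cores, at 93 and 34 bases, with an AP-1 site between them at 58 bases and a T-box site at 15 bases. These distances hold for the RefSeq start only, since in GENCODE vM21 the *Gzmb* gene begins further downstream, at chr14:56262260. The Runx core was present in 9 of the 10 members and in 14.2% of the 27025 promoters, with *Gzmk* the member that lacked it. The CRE was present in 3 members and in 1.62% of all promoters, the AP-1 site in 1 member and in 6.87%, and the T-box site in 2 members (*Gzmb* and *Gzmk*) and in 12.2%. *Gzmc* to *Gzmg* all held the Runx core, and the members with the CRE were *Gzmc*, *Gzmf* and *Gzmg*. The promoters of *Gzmc* to *Gzmg* are near copies of each other. Their matches are therefore not separate, and the counts cannot show an enrichment over all promoters. A match says only that these letters are present.

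The transcripts of the cluster genes are also alike, which bears on how reads were divided between them. *Gzmd* and *Gzme* transcripts were 94.8% identical and shared a run of 96 bases. Of all 50-base windows, 21.9% of *Gzmd*, 20.6% of *Gzme* and 19.8% of *Gzmg* occurred letter for letter in the transcript of another gene. The share was 7.36% for *Gzmf* and 4.14% for *Gzmc*, and no window of *Gzma*, *Gzmb*, *Gzmk*, *Gzmm* or *Prf1* was shared. Values of *Gzmd*, *Gzme*, *Gzmf* and *Gzmg* are therefore uncertain where reads could be placed on more than 1 of them, and the share of such reads was not analysed here.

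Depth ran from 19382147 to 24856195 reads on genes. The worth of 1 read was read off as the commonest small value in a library. The values are normalized counts, that is reads divided by a size factor of each library. The detection floor was set at 3 reads (2.59 to 3.35 normalized counts, depending on the library) and covers counting error only. Both Effector libraries and Acute-7d replicate 1 have names with the prefix RESUB, whose meaning is not given, and a term for that prefix rests on the pair of Acute-7d libraries. Group differences were tested with limma on log2(normalized count + 1) over all 24303 genes with Benjamini-Hochberg adjustment, and a gene that passed 2-fold with an adjusted p below 0.05 is called differentially expressed (DEG). All 7 CD8 T cell markers examined were above the floor in every library. In bulk RNA, fewer cells that make a transcript and less of it per cell cannot be told apart.

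T_Dysf cells carried far more granzyme RNA than the other conditions, and most of it was *Gzma*. The 10 genes together took 2.59% and 2.44% of the normalized counts in the 2 T_Dysf libraries. They took 0.557% and 0.348% in Effector, and between 0.223% and 0.243% in the 4 Acute libraries. Both T_Dysf libraries lay above the other 6. The sum is given as a description, without a test.

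The make-up of the set changed with its size. Levels of different genes are compared per kilobase of transcript. *Gzma* made up 77.1% of the sum per kilobase in T_Dysf (mean of 2 libraries), against 31.4% in Acute-7d, 18.3% for Acute-2d and 11.7% for Effector. *Gzmb* made up 19.1% of it in T_Dysf, and its share rose through Acute-7d (44.8%) and Acute-2d (49.6%) to Effector (78.2%). *Gzmb* was thus the more abundant of the pair per kilobase in the other 6 libraries and *Gzma* in both T_Dysf libraries, where the ratio of *Gzma* to *Gzmb* was 4.04 ± 0.178. *Prf1* was 0.431% of the sum in T_Dysf against 1.58% to 2.97% in the other conditions, as means.

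**Figure D1:**
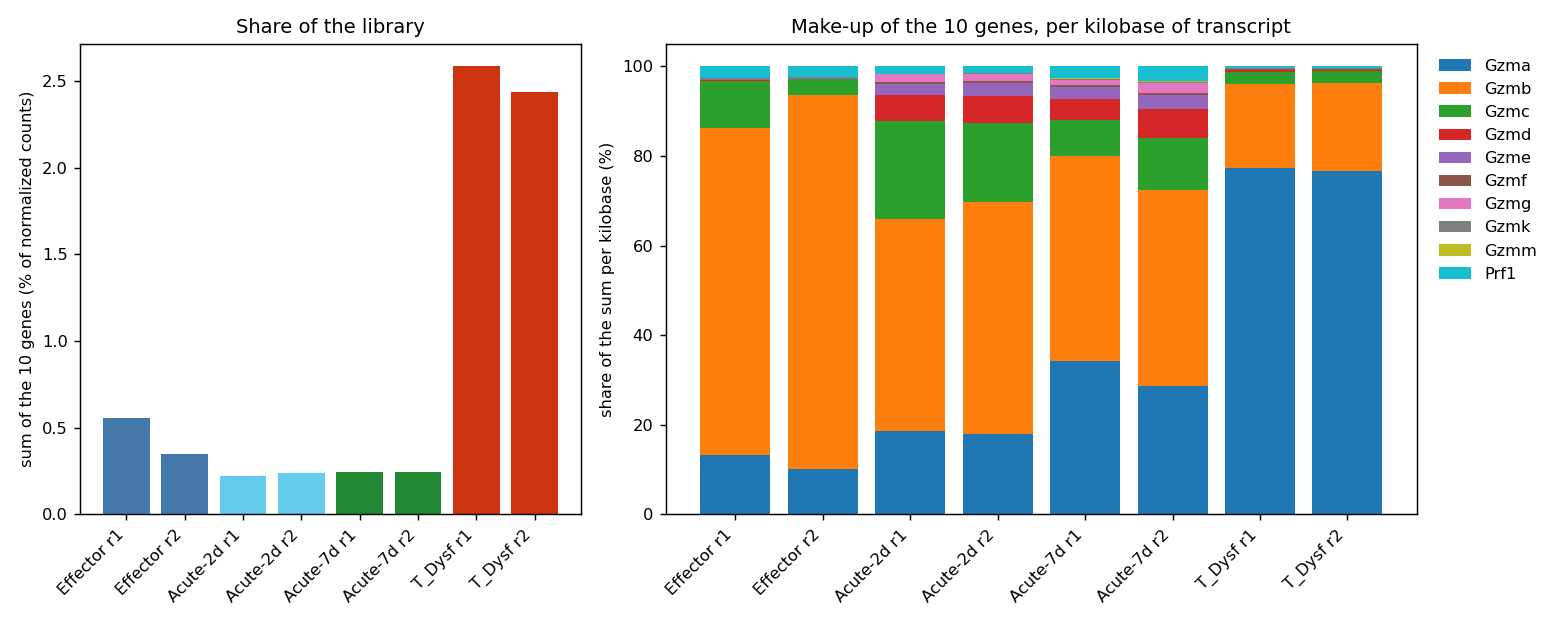
Left, the sum of the 10 genes as a percentage of all normalized counts of each library. Right, the share of each gene in that sum per kilobase of transcript. Each bar is 1 library (r1 and r2 are the replicates), and the T_Dysf bars stand out by their height, 2.59% and 2.44%, and by the blue *Gzma* part, 77.1% on average.

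*Gzma* encodes granzyme A, a tryptase that can work without caspases. It stood at 380972 and 357778 normalized counts in T_Dysf, where no other row of the table had more counts in either library. It stood at 13311.8 and 10898 in Acute-7d, 6610 and 6817 in Acute-2d, and 10176 and 4933 in Effector. The lowest T_Dysf library was far above the highest of the other 6. *Gzma* was 30.7-fold higher in T_Dysf than in Acute-7d (log2 fold change 4.94 ± 0.36 SE, adjusted p = 0.00488, limma). It was 55.0-fold higher than in Acute-2d (adjusted p = 0.00279, limma) and 52.1-fold higher than in Effector (adjusted p = 0.00311, limma). It was a DEG in these 3 comparisons whichever of the 8 libraries was left out. Against Effector, a fit of these 4 libraries alone gave an adjusted p of 0.0589, and a RESUB term 0.0539 (limma). Among Acute-7d, Effector and Acute-2d, which followed in that order of means, neighbours did not differ beyond their spread. Without Effector replicate 1, Effector was lower than Acute-7d as a DEG (log2 fold change -1.29, adjusted p = 0.0228, limma).

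*Gzmk* encodes granzyme K, a second tryptase, whose RNA is often used to mark a subset of CD8 T cells. It was far less abundant than *Gzma* per kilobase, at 0.202% of the sum in T_Dysf. It measured 1149 and 1112 normalized counts in T_Dysf, 144 and 111 in Effector, 134 and 69.7 in Acute-7d, and 48.4 and 48.6 in Acute-2d. Again the T_Dysf libraries stood apart from all others. *Gzmk* was 11.6-fold higher in T_Dysf than in Acute-7d (log2 fold change 3.53 ± 0.33 SE, adjusted p = 0.00868, limma), 22.9-fold higher than in Acute-2d and 8.85-fold higher than in Effector. A fit of the 4 libraries alone gave an adjusted p of 0.0546 against Acute-7d (limma). Effector was 2.58-fold over Acute-2d and did not pass (adjusted p = 0.0550, limma), but did once genes with a mean under 50 were removed (adjusted p = 0.0149, limma), and also without either Acute-7d library (adjusted p down to 0.0296, limma). Without T_Dysf replicate 1 it was no longer a DEG against Acute-7d (adjusted p = 0.0626, limma) or Effector (adjusted p = 0.0606, limma).

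*Gzmb* encodes granzyme B, the main caspase-cutting granzyme. It was high throughout, at 149579 and 149509 normalized counts in T_Dysf, 90949 and 66735 in Effector, 29274 and 27049 in Acute-7d, and 27601 and 31971 in Acute-2d. No condition overlapped another except the pair of Acute conditions. *Gzmb* rose 5.31-fold in T_Dysf over Acute-7d (log2 fold change 2.41 ± 0.22 SE, adjusted p = 0.00800, limma) and 5.03-fold over Acute-2d (adjusted p = 0.00671, limma). T_Dysf was 1.92-fold over Effector, just short of both thresholds (log2 fold change 0.94 ± 0.22 SE, adjusted p = 0.0501, limma), and without Effector replicate 1 it was a DEG at a log2 fold change of 1.16. Effector was 2.77-fold above Acute-7d (adjusted p = 0.0220, limma) and 2.62-fold above Acute-2d (adjusted p = 0.0222, limma). The call against Acute-7d was lost without Acute-7d replicate 1, Acute-7d replicate 2 or T_Dysf replicate 1, at log2 fold changes between 2.35 and 2.47 and adjusted p up to 0.0626 (limma). The call against Acute-2d was lost without Acute-2d replicate 1 or T_Dysf replicate 1, with adjusted p up to 0.0549 (limma). Both calls of Effector over the Acute conditions were kept only when an Effector library was the one left out, with adjusted p up to 0.113 and 0.123 (limma) otherwise.

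*Prf1* moved less than the leading granzymes. It measured 5876 and 5767 normalized counts in T_Dysf, 5647 and 3207 in Effector, 2835 and 3591 in Acute-7d, and 1623 and 1642 in Acute-2d. The T_Dysf libraries were the highest, and 1 Effector library came close to them. *Prf1* was 3.56-fold higher in T_Dysf than in Acute-2d (log2 fold change 1.83 ± 0.29 SE, adjusted p = 0.0223, limma), and 2.61-fold higher in Effector than in Acute-2d (adjusted p = 0.0391, limma). The first call was lost without either library of Acute-2d or of T_Dysf (adjusted p up to 0.114, limma), and the second was kept only without Effector replicate 2, with log2 fold changes from 0.97 to 1.79 over the 8 fits. The second was also lost under 2 other scalings (adjusted p = 0.0521 and 0.0598, limma). Against Acute-7d the T_Dysf value was 1.82-fold and did not pass (adjusted p = 0.141, limma). The 95% interval of the log2 fold change, which is not adjusted for the number of genes, ran from 0.13 to 1.61. *Gzmb* per kilobase was 44.3 ± 0.572 times *Prf1* in T_Dysf, 31.8 ± 5.73 times in Effector, 31.4 ± 3.0 times in Acute-2d and 15.4 ± 3.40 times in Acute-7d (SD, n = 2), a ratio for which no test was run.

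**Figure D2:**
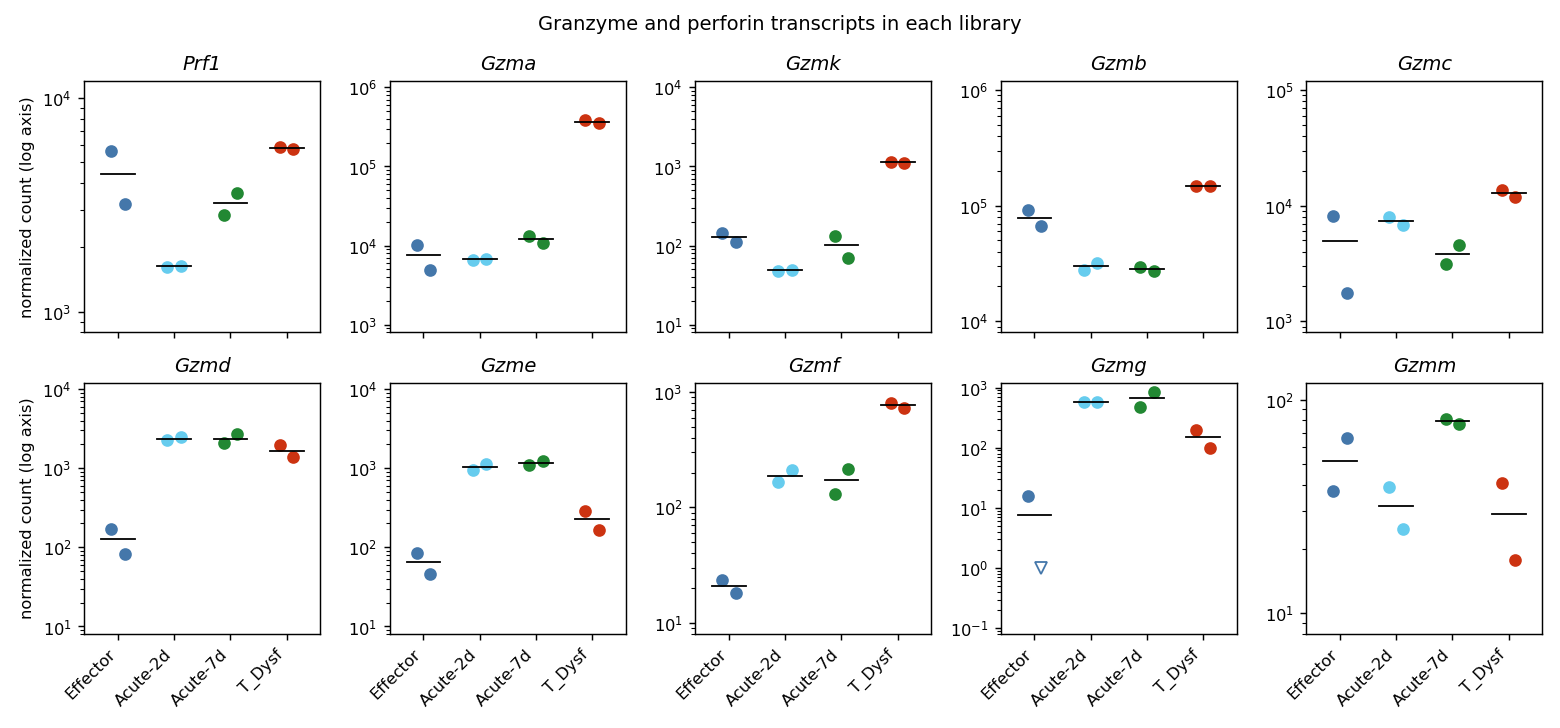
Normalized counts of each gene on a log axis (the range differs between panels), with 1 point per library and a bar at the mean of the 2 libraries. The open triangle marks the Effector library in which *Gzmg* is listed at 0. *Gzma* and *Gzmk* stood at 380972 and 1149 in their highest T_Dysf library, while *Gzmd*, *Gzme* and *Gzmg* were highest in the Acute libraries and lowest in Effector.

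The genes in the middle of the cluster, *Gzmc* to *Gzmg*, split into several patterns. *Gzmd*, *Gzme* and *Gzmg* were highest in both Acute conditions and lowest in Effector. *Gzmf* was highest in T_Dysf and lowest in Effector. *Gzmc*, the most abundant of the 5, showed no difference that passed the test in any comparison of all 8 libraries.

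*Gzmd* measured 2070 and 2667 normalized counts in Acute-7d, 2237 and 2487 in Acute-2d, 1944 and 1394 in T_Dysf, and 171 and 82.3 in Effector. The T_Dysf and Acute libraries were close, and the Effector libraries lay well below all of them. *Gzmd* was 13.8-fold higher in T_Dysf than in Effector (log2 fold change 3.78 ± 0.39 SE, adjusted p = 0.00870, limma), a call that was lost without T_Dysf replicate 1 (adjusted p = 0.0575, limma). It was 19.6-fold lower in Effector than in Acute-7d (adjusted p = 0.0113, limma) and 19.7-fold lower than in Acute-2d (adjusted p = 0.00992, limma). The first of these was lost without Acute-7d replicate 1 (adjusted p = 0.0530, limma). T_Dysf and Acute-7d differed by a log2 fold change of -0.51, with a 95% interval that reached up to 0.50.

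*Gzme*, the nearest relative of *Gzmd*, parted from it in T_Dysf. It measured 1100 and 1229 normalized counts in Acute-7d and 946 and 1122 in Acute-2d, 289 and 165 in T_Dysf, and 85.9 and 46.1 in Effector. The 3 levels did not overlap. *Gzme* fell by 2.41 on the log2 scale in T_Dysf against Acute-7d (adjusted p = 0.0310, limma) and by 2.23 against Acute-2d (adjusted p = 0.0302, limma), and it was the only member lower in T_Dysf by this test in these comparisons. It was 3.43-fold higher in T_Dysf than in Effector (adjusted p = 0.0457, limma). *Gzme* was kept as a DEG against both Acute conditions only when an Effector library was the one left out, and against Effector only without Effector replicate 1. *Gzme* was also 18.2-fold lower in Effector than in Acute-7d (adjusted p = 0.0118, limma) and 16.1-fold lower than in Acute-2d (adjusted p = 0.0109, limma), calls that were lost without Acute-7d replicate 1 (adjusted p = 0.0590, limma) and without Acute-2d replicate 1 (adjusted p = 0.0519, limma). In the comparisons with T_Dysf the direction held without each library, with log2 fold changes from -2.81 to -2.01 against Acute-7d, from -2.63 to -1.83 against Acute-2d and from 1.34 to 2.22 against Effector. The call against Effector was also lost with equal library totals (adjusted p = 0.0531, limma) and with limma-voom (adjusted p = 0.0627).

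Per kilobase, *Gzmd* was 7.20 ± 1.13 times *Gzme* in T_Dysf and 1.92 ± 0.194 times in Acute-7d, with 2.18 ± 0.0993 in Acute-2d and 1.79 ± 0.139 in Effector (SD, n = 2). The ratio was thus close to 2 in the 6 other libraries and higher in both T_Dysf libraries. This ratio was not tested, and how reads shared by the pair were divided bears on it.

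*Gzmf* went the other way. It measured 807 and 723 normalized counts in T_Dysf, 167 and 209 in Acute-2d, 131 and 215 in Acute-7d, and 23.8 and 18.1 in Effector. Only the Acute conditions overlapped. *Gzmf* was 4.54-fold higher in T_Dysf than in Acute-7d (log2 fold change 2.18 ± 0.29 SE, adjusted p = 0.0197, limma), 4.06-fold higher than in Acute-2d (adjusted p = 0.0187, limma) and 35.2-fold higher than in Effector (adjusted p = 0.00259, limma). Effector was 7.76-fold below Acute-7d (adjusted p = 0.0128, limma) and 8.67-fold below Acute-2d (adjusted p = 0.0105, limma). The calls against Effector held without each library. That against Acute-7d was lost without Acute-7d replicate 1 or either T_Dysf library (adjusted p up to 0.114, limma), and that against Acute-2d without any one of the 4 libraries compared (adjusted p up to 0.107, limma).

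*Gzmg* measured 577 and 578 normalized counts in Acute-2d, 474 and 858 in Acute-7d, 200 and 99.6 in T_Dysf, and 15.5 and 0 in Effector. The 15.5 stands for 17 reads, and the other Effector library was under the floor of 3 reads, so that fitted fold changes against Effector depend on the number added before the logarithm. With 1 added, Effector was lower than Acute-7d (log2 fold change -7.30 ± 1.36 SE, adjusted p = 0.0328, limma) and than Acute-2d (log2 fold change -7.15, adjusted p = 0.0330, limma). Both calls were kept only when an Effector library was the one left out, and adjusted p rose to 0.125 and 0.129 (limma) otherwise. With 0.1 added in place of 1 both were lost (adjusted p = 0.0734 and 0.0745, limma). T_Dysf over Effector did not pass (adjusted p = 0.0707, limma), but did with genes of a mean of at least 50 (adjusted p = 0.0119, limma) and without Effector replicate 1 (adjusted p = 0.0101, limma). T_Dysf libraries lay below all Acute libraries, but the differences did not pass the test (adjusted p = 0.393 and 0.405, limma), in which the wide spread of the Effector pair also counts.

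*Gzmc* measured 13739 and 11983 normalized counts in T_Dysf, 7923 and 6818 in Acute-2d, 3107 and 4551 in Acute-7d, and 8188 and 1743 in Effector. The T_Dysf libraries were the highest. The 2 Effector libraries differed more than any pair of the other conditions and spanned both Acute conditions. The difference from Acute-7d, a log2 fold change of 1.77 ± 0.74 SE, did not pass (adjusted p = 0.220, limma). It passed without Effector replicate 1 or Effector replicate 2, with an adjusted p down to 0.0291 (limma). Without Effector replicate 1, which held the higher Effector value, *Gzmc* was also a DEG between T_Dysf and Effector (log2 fold change 2.88 in place of 1.76, adjusted p = 0.0130, limma) and between Effector and Acute-2d (log2 fold change -2.08 in place of -0.96, adjusted p = 0.0242, limma).

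*Gzmm*, whose product prefers methionine or leucine at the cut, was near the lower limit of useful values. It measured 81.4 and 76.7 normalized counts in Acute-7d, 37.5 and 66.2 in Effector, 39.0 and 24.8 in Acute-2d, and 40.6 and 17.8 in T_Dysf. It had between 20 and 76 reads per library and was the only member with a mean under 50. No comparison of *Gzmm* passed the test, and its log2 fold change between T_Dysf and Acute-7d was -1.52 ± 0.53 SE (adjusted p = 0.157, limma).

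Counted over the members, T_Dysf against Acute-7d gave 4 DEGs higher in T_Dysf (*Gzma*, *Gzmb*, *Gzmf* and *Gzmk*) and 1 lower (*Gzme*), 5 of 10, where 5.57% of all genes were DEGs (2.54% up in T_Dysf and 3.03% down). The median log2 fold change was 1.32 over the members and 0 over all genes. T_Dysf against Acute-2d gave 6 of 10, the same 5 and *Prf1*, with 7.35% over all genes (3.14% higher and 4.21% lower) and a median of 1.32 for the members. T_Dysf against Effector gave 5 of 10, all higher in T_Dysf (*Gzma*, *Gzmd*, *Gzme*, *Gzmf* and *Gzmk*), with 9.22% over all genes (4.47% higher and 4.75% lower) and a median of 2.46. These comparisons share the T_Dysf libraries and are not independent. The counts rested on single libraries: without T_Dysf replicate 1 they were 1, 2 and 2, without T_Dysf replicate 2 they were 3, 3 and 4, and without Effector replicate 1 they were 6, 6 and 8. Without Acute-7d replicate 1 or 2 the count against Acute-7d was 2 or 3, and without Acute-2d replicate 1 or 2 the count against Acute-2d was 2 or 3. When only the compared conditions entered the fit, the counts were 2 (*Gzma* and *Gzmb*), 5 and 2 (*Gzmf* and *Gzmk*), and with a term for the RESUB libraries they were 2 (*Gzma* and *Gzmk*), 5 and 2 (*Gzmf* and *Gzmk*).

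**Figure D3:**
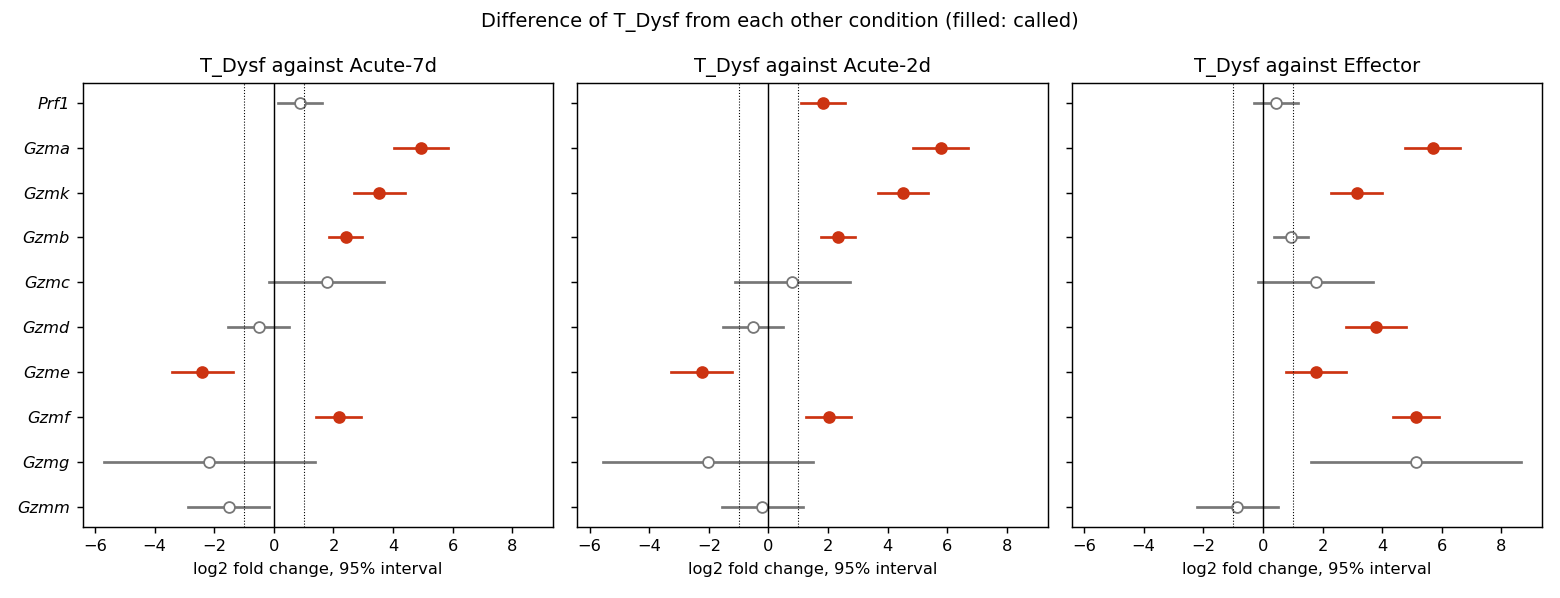
Log2 fold change of T_Dysf over each other condition with its 95% interval, for each gene. Filled red points are DEGs, open grey points did not pass, and dotted lines mark a fold change of 2. *Gzme* was on the lower side against both Acute conditions (-2.41 and -2.23) and on the higher side against Effector (1.78), and *Gzma* was far to the right in each panel.

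Among the conditions without late peptide, Acute-7d against Acute-2d gave no DEG among the members by limma, where 0.169% of all genes were DEGs (0.0782% up in Acute-7d and 0.0905% down). At an unadjusted p under 0.05, *Prf1* (log2 fold change 0.97) and *Gzmk* (log2 fold change 0.98) were higher in Acute-7d, both under a fold change of 2. Their adjusted p-values were 0.549 and 0.623 (limma). limma-voom, run on the same values, also gave 0 DEGs. The largest log2 fold change in this comparison was that of *Gzmm*, 1.32, and it did not pass (adjusted p = 0.706, limma).

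Effector against Acute-7d gave 5 of 10, with *Gzmb* higher and *Gzmd*, *Gzme*, *Gzmf* and *Gzmg* lower in Effector, where 8.06% of all genes were DEGs (4.18% higher and 3.88% lower in Effector). Effector against Acute-2d gave 6 of 10, the same 5 and *Prf1*, with 8.78% over all genes (4.31% higher and 4.48% lower). The medians of the log2 fold changes over the members were -0.71 and -0.44. Effector cells therefore held more *Gzmb* than the Acute cells and less of 4 of its cluster neighbours. Without Acute-7d replicate 1 the count against Acute-7d was 1, and without Acute-2d replicate 1 the count against Acute-2d was 2. Without either T_Dysf library both counts were 3, without Acute-7d replicate 2 or either Acute-2d library the first was 3, and without Acute-2d replicate 2 the second was 3. Effector was collected on day 7 and the others on day 19, so that day and condition cannot be told apart. When only the compared conditions entered the fit both counts were 0, and with a RESUB term they were 3 and 0.

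Position on the chromosome was compared next, using the 2 protein-coding genes on each side of every member. Around *Gzma* and *Gzmk*, the neighbours *Cdc20b*, *Gpx8* and *Esm1* were also far higher in T_Dysf. *Gpx8*, a member of the glutathione peroxidase family, measured 476 and 496 normalized counts in T_Dysf and at most 15.8 in the other 6 libraries. *Esm1*, which encodes a secreted proteoglycan, measured 2773 and 2595 in T_Dysf and at most 233 elsewhere. *Cdc20b* measured 239 and 106 in T_Dysf and at most 6.69 elsewhere. Each was a DEG against Acute-7d, with log2 fold changes of 5.85 (*Gpx8*, adjusted p = 0.0125, limma), 4.10 (*Esm1*, adjusted p = 0.0148, limma) and 5.35 (*Cdc20b*, adjusted p = 0.0417, limma). No exon of these genes shares a base with an exon of *Gzma* or *Gzmk* in GENCODE vM21, although the gene body of *Esm1* lies on the opposite strand within that of the longest *Gzmk* model. In the RefSeq annotation the gene span of *Cdc20b* contains *Gzma*, and whether reads of the one were counted to the other was not tested.

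Members left out, no listed neighbour of *Gzmb*, *Prf1* or *Gzmm* passed the test between T_Dysf and Acute-7d. Beside *Gzmb* this rests on *Rnf17* alone, because *Atp12a* was not in the table and the genes on the other side are the members *Gzmf* and *Gzmc*. *Tbata* and *Nodal*, beside *Prf1*, were not in the table either. *Rnf17* measured 7.02 normalized counts on average in T_Dysf and 5.26 in Acute-7d, and had between 4 and 11 reads per library. Beside *Prf1*, *Adamts14* (an extracellular metalloprotease) measured 292 normalized counts on average in T_Dysf and 611 in Acute-7d (adjusted p = 0.276, limma), and *Pald1* had a log2 fold change of -0.34. Around *Gzmm*, the log2 fold changes of *Tpgs1*, *Cdc34*, *Bsg* and *Hcn2* lay between -0.05 and 0.54.

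On the other side of the cluster on chromosome 14, *Ctsg* (cathepsin G) and *Mcpt8* (a basophil protease) lie beyond *Gzme*. *Mcpt8* measured 82.6 and 97.9 normalized counts in Acute-7d, 59.0 and 31.3 in Acute-2d, 28.5 and 36.5 in T_Dysf, and 9.14 and 4.01 in Effector. *Ctsg* measured 25.7 and 77.8 in Acute-7d, 50.6 and 38.9 in Acute-2d, at most 2.59 in T_Dysf, and was listed at 0 in both Effector libraries. By means both were highest in the Acute conditions. *Mcpt8* was lowest in Effector, as *Gzme* was, while *Ctsg* was at or under the floor in T_Dysf and Effector alike. *Mcpt8* was a DEG between Effector and Acute-7d (log2 fold change -3.67, adjusted p = 0.0201, limma), and *Ctsg* between T_Dysf and Acute-7d (adjusted p = 0.0375, limma).

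**Figure D4:**
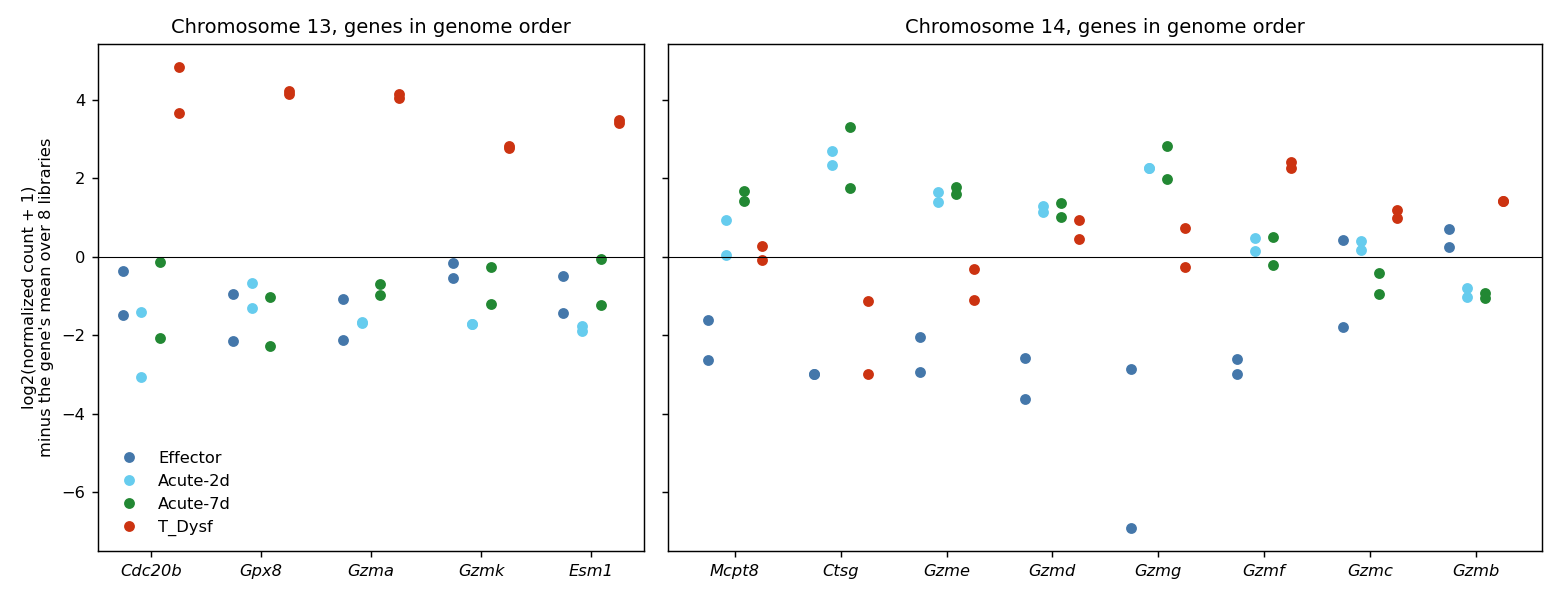
Log2(normalized count + 1) of each library minus the mean of the gene over the 8 libraries, with genes in genome order and not to scale. Left, *Gzma* and *Gzmk* with their neighbours, all highest in T_Dysf. Right, the chromosome 14 cluster, where Effector was lowest from *Mcpt8* to *Gzmf* (for *Ctsg* both T_Dysf libraries were also at or under the floor) and T_Dysf was highest from *Gzmf* to *Gzmb*.

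Of the genes that serve granzymes, most did not pass the test. Of 10 granule proteases and their carrier, 2 were DEGs higher in T_Dysf than in Acute-7d and none was lower, where 2.54% of all genes were higher and 3.03% lower. By limma-voom the counts were also 2 and 0. At an unadjusted p under 0.05, with no fold threshold, 7 were higher and 0 lower, and the share of all genes at that threshold was not counted. The 2 DEGs are named next. They were *Ctsw* (cathepsin W, log2 fold change 1.35, adjusted p = 0.0429, limma) and *Srgn* (serglycin, the proteoglycan on which granzymes are packed, log2 fold change 1.04, adjusted p = 0.00643, limma). Against Acute-2d 3 were higher, *Ctsw* (log2 fold change 1.72), *Ctsd* (cathepsin D, log2 fold change 1.29) and *Gnptab* (which makes the sorting tag of lysosomal enzymes, log2 fold change 1.18), and 1 was lower (*Ctsl*, log2 fold change -1.34), with 3.14% and 4.21% of all genes. Against Effector 3 were higher, *Ctsw* (log2 fold change 1.78), *Srgn* (1.37) and *Ctsd* (1.06), with 4.47% of all genes. The median over the list was 0.64 on the log2 scale against Acute-7d.

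Of 20 granule exocytosis genes in the table, 1 was higher and 1 lower in T_Dysf than in Acute-7d, where 5.57% of all genes were DEGs. At an unadjusted p under 0.05, with no fold threshold, 17 were higher and 1 lower. The fold change was above 1 for 19 of the 20, with a median of 0.52 on the log2 scale, and 9 had an adjusted p under 0.05, most of them under 2-fold. The shares of all genes at these looser thresholds were not counted, so these numbers cannot show an excess. *Lamp2*, a lysosomal membrane protein, was the largest of these under 2-fold (log2 fold change 0.89, adjusted p = 0.0103, limma). *Rab27a*, the small GTPase that docks granules, measured 3442 on average against 1657 (log2 fold change 1.06, adjusted p = 0.0190, limma). *Lyst*, whose loss gives giant granules, measured 1918 against 3895 (log2 fold change -1.02, adjusted p = 0.00594, limma). *Lyst* was also lower than in Acute-2d (log2 fold change -1.41) and Effector (log2 fold change -1.16). *Nkg7*, a granule membrane protein, was higher than in Acute-2d (log2 fold change 1.06), and *Vamp2* (log2 fold change 1.77) and *Sytl1* (log2 fold change 1.06) were higher than in Effector.

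Among 7 genes of the serpin family, which holds inhibitors of granzymes and of other proteases, none was higher in T_Dysf than in Acute-7d. This held by limma, by limma-voom and at an unadjusted p under 0.05. By limma 1 was lower, where 2.54% of all genes were higher and 3.03% lower. Whether each of the 7 acts on a granzyme was not tested. *Serpina3f* was lower than in Acute-7d, at 262 against 3475 normalized counts on average (log2 fold change -3.72, adjusted p = 0.0277, limma), and lower than in Acute-2d (log2 fold change -4.35). *Serpinb9*, the inhibitor of granzyme B, was lower than in Effector, at 485 against 1688 (log2 fold change -1.78, adjusted p = 0.0231, limma). Against Acute-7d it measured 485 and 813 and did not pass (adjusted p = 0.207, limma). The median log2 fold change of the list was -1.04 against Acute-7d and -1.78 against Effector.

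Of 17 transcription factors known to act on granzyme or perforin genes, none was a DEG between T_Dysf and Acute-7d by limma or limma-voom. By the DEG thresholds 5.57% of all genes were called. At an unadjusted p under 0.05, with no fold threshold, there were 6, of which 4 were higher and 2 lower in T_Dysf. The share of all genes at that looser threshold was not counted, so the 6 cannot show an excess. *Runx3*, whose product binds the Runx core, came close at 1.97-fold (adjusted p = 0.0474, limma) and was also 1.97-fold over Acute-2d (adjusted p = 0.0405, limma), both just under the fold threshold. *Eomes* went the other way, at 1015 in T_Dysf against 2790 in Acute-7d on average. Its log2 fold change of -1.43 did not pass (adjusted p = 0.0634, limma). *Zfp683* (Hobit) was higher than in Acute-2d (log2 fold change 1.28, adjusted p = 0.0358, limma). Against Effector *Bhlhe40* (log2 fold change 1.18) and *Id2* (log2 fold change 1.17) were higher and *Irf4* was lower (log2 fold change -1.30). Among 6 genes of TGF-β signaling and its partner factors, which include the inhibitory *Smad7*, *Smad3* was lower in T_Dysf than in Acute-7d. It measured 82.1 against 1779 (log2 fold change -4.44, adjusted p = 0.00461, limma), where 3.03% of all genes were lower. The other 5 of that list, *Smad2* (log2 fold change 0.09), *Smad4* (-0.45), *Smad7* (-0.46), *Atf1* (0.37) and *Creb1* (-0.41), did not pass.

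Of 5 other killing molecules in the table, 2 were higher in T_Dysf than in Acute-7d, where 2.54% of all genes were higher and 3.03% lower. *Ifng* (interferon gamma) measured 3336 against 708 normalized counts (log2 fold change 2.27, adjusted p = 0.0208, limma). The death ligand *Tnfsf10* (TRAIL) measured 6932 against 1998 (log2 fold change 1.79, adjusted p = 0.0236, limma). *Fasl* (log2 fold change 0.17), *Tnf* (0.12) and *Lta* (-1.26) did not pass. Of 13 genes for granzyme targets and partners in an attacked cell, *Apex1* was lower than in Acute-7d (log2 fold change -1.24) and 5 (*Apex1*, *Bid*, *Hmgb2*, *Prdx4* and *Lmnb1*) were lower than in Effector, with log2 fold changes between -2.34 and -1.44, where 4.75% of all genes were lower. The lists were chosen with earlier results of these data known.

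The genes most like a member over the 8 libraries are given as a description, from 6657 other genes with a mean of at least 50 and a range of at least 1 on the log2 scale over the libraries. Nearest to *Gzma* were *Aldh3a2* (Pearson r = 0.995), *Mef2a* (0.994) and *Igflr1* (0.994). Nearest to *Gzmb* were *Clec12a* (0.996), *Snx9* (0.992) and *Mpi* (0.987), and nearest to *Prf1* were *Osbpl3* (0.990), *Eci1* (0.979) and *Klre1* (0.969). These correlations share the libraries, and the 8 points fall into 4 conditions.

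Markers of other cells that make granzymes, and of contaminating cells, were read beside these results. The cells had been purified by flow cytometry, on day 19 as viable CD8 T cells, and their purity after sorting was not measured here. Among 5 NK cell markers, the summed level was between 1306 and 1961 normalized counts in T_Dysf and between 3619 and 4561 in Acute-7d. Most of it was *Eomes* (828 and 1202 in T_Dysf, 3510 and 2071 in Acute-7d). That gene is also in the list of transcription factors above, so the sum is not a measure of NK cells. *Ncr1* was at or under 2.59 in T_Dysf. *Tyrobp* was at 208 and 230 in T_Dysf and at most 50.5 elsewhere. Among 6 mast cell and basophil markers, the sum was between 1528 and 1855 in T_Dysf and at most 491 elsewhere, which was mostly *Kit* (1363 and 1696), while *Fcer1a* was listed at 0 in every library. The 3 plasma cell genes found of 4 summed to between 1435 and 1576 in T_Dysf and between 10.8 and 31.1 elsewhere, with *Igha* at 1086 and 1154. *Trdc*, the constant region of the delta chain, was between 5302 and 11389 in all libraries. The 7 CD8 T cell markers summed to between 139042 and 147210 in T_Dysf and between 73015 and 87054 elsewhere, with *Cd3e* and *Cd3g* among the DEGs against Acute-7d. The other marker DEGs in that comparison were *Kit* (log2 fold change 4.08) and the plasma cell genes *Igha* (7.48), *Jchain* (5.73) and *Sdc1* (4.88), all higher in T_Dysf, and *Ncr1* (-4.18), which was lower. The part of these genes in the granzyme differences was not tested. The CD4 T cell markers summed to between 1064 and 1388 in T_Dysf and between 1043 and 1629 elsewhere. In T_Dysf this was nearly all *Zbtb7b* (1061 and 1385), with *Cd4* at most 3.45. The B cell markers summed to 24.2 and 24.9 in T_Dysf against 19.0 to 38.1 elsewhere. The myeloid markers summed to between 281 and 314 against 223 to 493, and the erythroid markers to 21.8 and 31.3 against 21.3 to 42.6.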

How the data were processed

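Poly(A) RNA of cultured P14 cells was sequenced in 8 libraries, a pair for each of 4 conditions. The authors aligned with STAR against mm10, counted reads on RefSeq transcripts in Partek Flow and scaled them with DESeq2, and the deposited values are therefore a signal: reads divided by a size factor of the library. The table holds 24303 genes, although the methods name a filter on a maximum under 50. Values under 1000 reads were whole multiples (within 0.01) of the worth of 1 read for 72.2% to 74.9% in 7 libraries and for 51.0% in T_Dysf replicate 1, so no count model was fitted. How reads matching several genes were counted, and whether strand was used, is not given in the sources used here.

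limma (3.58.1, R 4.3.3; trend) was fitted once to log2(normalized count + 1) of all genes and libraries, with a mean per condition, no covariate and 4 residual degrees of freedom, for 6 two-sided comparisons. The paper's methods do not say if their P is adjusted. With 2 libraries per condition, exact permutation between conditions cannot reach 0.05. The code was tested on simulated data. The members and the gene lists were chosen with earlier results of these data known. Named genes were every member, those of each list that were DEGs in a comparison with T_Dysf (at most 6 with values, all of lists of 6 or fewer), the 3 genes most like *Gzma*, *Gzmb* and *Prf1*, and the 2 protein-coding neighbours on each side. The marker genes given with values and the neighbours described were singled out after their values were seen. Promoters (RefSeq, GRCm38.p6, 10 of 10 members matched) and transcripts (GENCODE vM21) were compared by global alignment with Biopython 1.88. Alternatives were another pseudocount (0.1 or 10), a mean or maximum of at least 50, equal totals, equal 75th percentiles, quantile normalization, separate fits of each pair of conditions, a block for the replicate number, a RESUB term, unadjusted p, limma-voom and leaving out each library. Tables and figures used pandas 2.3.3 and matplotlib 3.10.9 in Python 3.11.15.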

Additional observations from a re-analysis of the deposited data

How the results depend on the processing

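The members counted as DEGs were 5 (T_Dysf against Acute-7d), 6 (against Acute-2d), 5 (against Effector), 0 (Acute-7d against Acute-2d), 5 (Effector against Acute-7d) and 6 (Effector against Acute-2d). With only the compared conditions in the fit they were 2, 5, 2, 0, 0 and 0, and with the RESUB term 2, 5, 2, 0, 3 and 0, where that term rests on the pair of Acute-7d libraries. Leaving out each library in turn gave 1 to 6, 2 to 6, 2 to 8, 0 to 0, 1 to 6 and 2 to 6. A group left with 1 library is then assumed to vary like the others. Under the other 9 alternatives every count stayed within 1.5 times the main count. The replicate numbers were not taken as pairs, since the correlation of replicate differences ran from -0.199 to 0.197 over 6 pairs of conditions (2 over 0.1). With a replicate block the counts were 4, 4, 4, 0, 4 and 4, without *Gzme*, *Prf1* and *Gzmg*.

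The summed share of the members was higher in T_Dysf than in Acute-7d by 3.37 on the log2 scale, and by 3.64 per kilobase of transcript.

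No reported DEG changed direction. Values that changed sign were uncalled as reported and under the alternative that turned them. For Acute-7d against Acute-2d these were *Gzmd* (log2 fold change 0.0121 with equal totals, 0.00713 with equal 75th percentiles, 0.18 with the RESUB term, -0.19 to 0.18 leaving out a library), *Gzmf* (0.20 with the RESUB term, -0.52 to 0.20 leaving out a library), *Gzmb* (0.0250 with quantile normalization, -0.18 to 0.0279 leaving out a library) and *Gzmg* (-0.28 to 0.57 leaving out a library). For Effector against Acute-7d they were *Gzmc* (-0.11 with equal 75th percentiles, -0.0576 with quantile normalization, -1.11 to 1.12 leaving out a library) and *Gzmk* (-0.0777 with the RESUB term, -0.0777 to 0.85 leaving out a library). For Effector against Acute-2d they were *Gzma* (-0.0219 with equal 75th percentiles, -0.21 with the RESUB term, -0.44 to 0.60 leaving out a library) and *Gzmc* (-2.08 to 0.16 leaving out a library, a DEG at the lower end, without Effector replicate 1), and for T_Dysf against Acute-2d *Gzmm* (0.14 with quantile normalization, -0.77 to 0.37 leaving out a library). The cause of these shifts was not tested. Depth limits *Gzmm* and, in Effector, *Gzmg*.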
